A study of Mus musculus with 6 samples.

Results

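Cd69, Zfp683, Tmem176a, Tmem176b, Cd200r1, Inpp4b, Hic1 and Emb are 8 genes used as markers of tissue residency and activation in innate lymphocytes. Their accessible regions were taken from an ATAC-seq peak table as every peak whose nearest gene carried 1 of these names. The choice gave 43 of 51775 peaks. Emb had 14 of them, Inpp4b 15, Hic1 5, Cd69 3, Cd200r1 3, Tmem176a 2 and Tmem176b 1, and Zfp683 was the nearest gene of no peak. Peaks were assigned to genes by distance alone, which does not show which gene a peak acts on.

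ATAC-seq, in which a transposase cuts and tags open DNA, was performed on natural killer (NK) cells from the spleen of C57BL6 mice. The mice were Rroid deficient or wildtype, with 3 libraries of each genotype. The Rroid locus, which gives rise to a long noncoding RNA, lies near Id2, the gene of a transcriptional regulator. Cells of both genotypes were sorted as CD3-, CD5-, NK1.1+ and NKp46+, and 50000 cells were used per genotype. The sources used here give neither the allele nor the age of the mice. Nothing in them ties the 3 libraries to different mice, so the p-values reflect the variation among these libraries alone, and it may be technical. The Rroid-deficient libraries are called 4, 5 and 6 and the wildtype libraries 1, 2 and 3, after the names of their columns.

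Lymphocytes that stay in a tissue keep the surface lectin Cd69, which binds the sphingosine phosphate receptor S1pr1 and opposes the exit that this receptor drives. The transcriptional repressor Hobit, encoded by Zfp683, acts with Blimp1 to hold lymphocytes in tissue in mice, and type 1 innate lymphoid cells (ILC1), the resident relatives of NK cells, carry several of these markers. An accessible region near a gene marks DNA that proteins can reach, and it may lie in a promoter, in an enhancer or in neither.

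Libraries differed in depth, with 27572006, 41167610 and 30762426 reads in peaks in Rroid-deficient libraries 4, 5 and 6, against 43187774, 47939665 and 39847736 in wildtype libraries 1, 2 and 3. Within 500 kb of the Id2 start site, 13 peaks, all adjacent, held under 10% of the wildtype value in Rroid-deficient cells. Their summed values were 51.4 to 56.8 in Rroid-deficient and 4182 to 5600.4 in wildtype libraries. These peaks were chosen by their low value, so the sums are no independent check of the labels. Their position was not compared with that of the Rroid locus. All 6 NK markers examined (Ncr1, Klrb1c, Klrk1, Eomes, Tbx21 and Prf1) had a peak within 1000 bp of the start site, with summed values of 14819 to 17992 in Rroid-deficient and 17434 to 20291 in wildtype libraries, and 3 of the 6 were called lower. No start-site peak was found for any of 4 B cell markers or 3 erythroid markers, nor for Cd3e, Cd3d, Cd4 or Cd8a. A peak counted only where the marker was its nearest gene, so one assigned to a neighbouring gene would be missed. Of 5 myeloid markers and 4 markers of type 2 and 3 innate lymphoid cells, 1 each had a start-site peak, and neither was called. The start-site peak of Cd3g, the remaining T cell marker, held 314 to 375 in Rroid-deficient and 55.2 to 65.4 in wildtype libraries and was called higher. Of 3 dendritic cell markers, 2 had a start-site peak, with summed values of 2752 to 3133 in Rroid-deficient and 2098 to 2835 in wildtype libraries. That of Flt3 was called higher, with 605 ± 92.9 in Rroid-deficient and 260 ± 90.1 in wildtype cells. That of Zbtb46, the larger part of the sum, was not called, with 2322 ± 149 in Rroid-deficient and 2220 ± 349 in wildtype cells. In bulk libraries, fewer cells that carry an open region and less opening per cell cannot be told apart, and the part of other cell types in the results was not tested.

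Accessibility was higher in Rroid-deficient NK cells around the Emb start site and at the start of Cd69, and lower at a pair of Inpp4b peaks and at the most distant upstream Emb peak. Values are normalized reads per peak as deposited, differences are log2 fold changes of Rroid deficient over wildtype from limma on log2(value + 1), and a peak was called at a Benjamini-Hochberg adjusted p under 0.05 over all 51775 peaks. Of the 43 peaks, 7 were called higher, which is 16.3%, against 13.8% of all peaks. Another 3 were called lower, 6.98% against 12.1% of all peaks, and 33 were not called. The 7 higher calls ranged from 5 to 7 when any 1 library was left out, and the 3 lower calls became 1 without Rroid-deficient library 4, wildtype library 2 or wildtype library 3. The median log2 fold change was -0.04 over the 43 peaks and -0.01 over all peaks. Counts this close to the whole table show nothing particular to the 8 genes as a list. Values of the genotypes did not overlap at 13 of the 43 peaks, 30.2%, against 40.1% of all peaks.

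**Figure D1:**
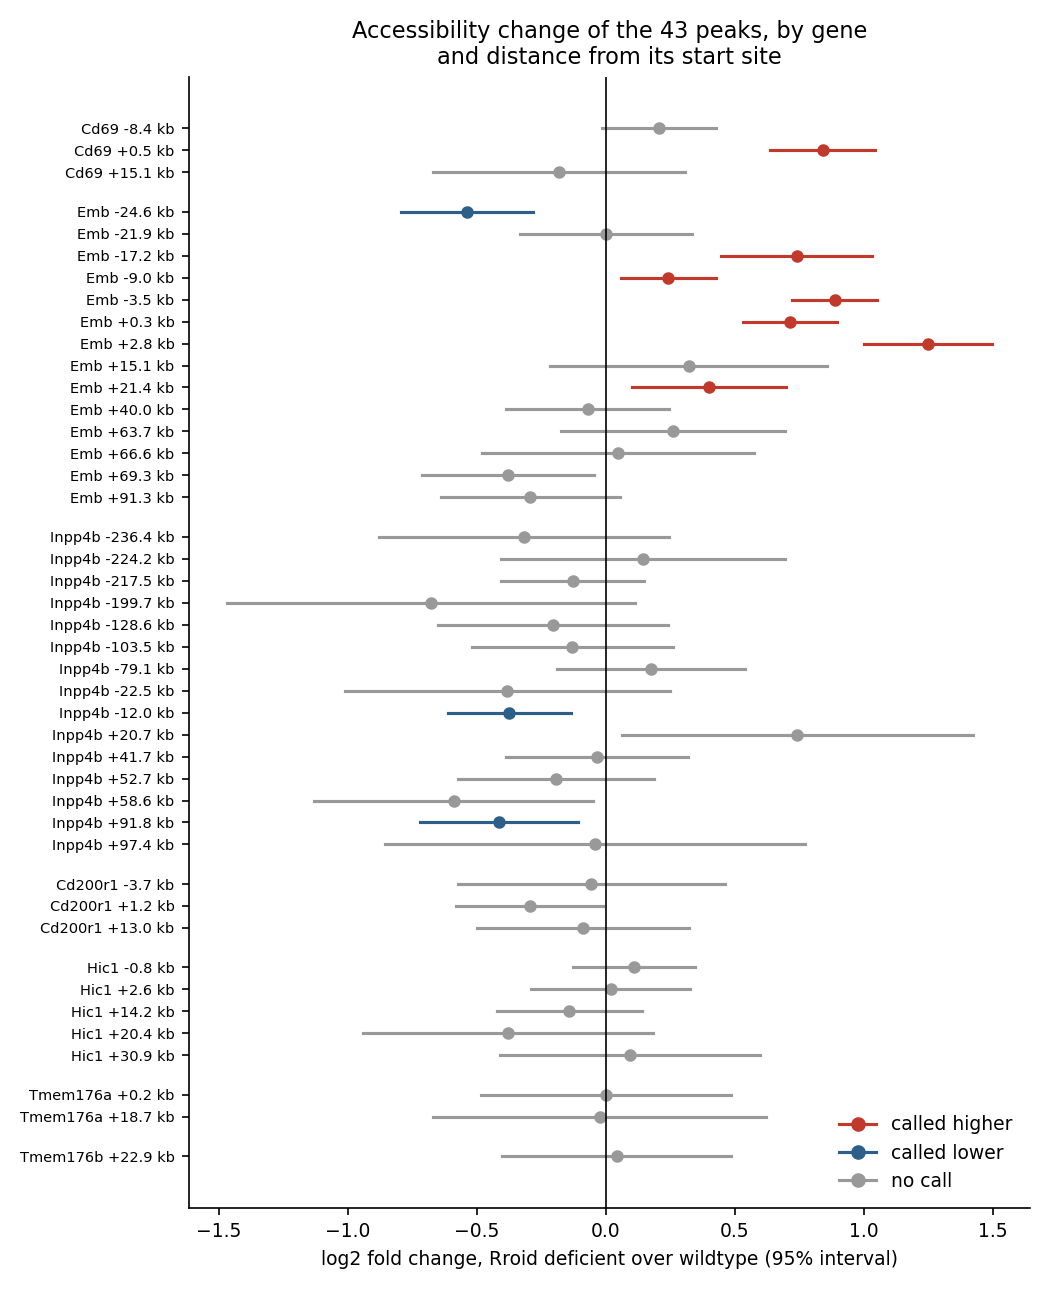
The log2 fold change of each of the 43 peaks (x axis, Rroid deficient over wildtype, point) with its 95% interval (line), ordered by gene and by distance from the start site in kb; red marks peaks called higher, blue peaks called lower and grey peaks not called. Calls cluster at Emb, where 6 of 14 peaks were higher, while Hic1, Cd200r1, Tmem176a and Tmem176b have none.

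The calls were uneven between genes. Emb held 6 of the 7 higher peaks and 1 of the 3 lower ones, and without Emb the 29 remaining peaks had 1 higher and 2 lower. They were also found only among the taller peaks. None of the 22 members under the median height of all peaks was called by limma, edgeR or DESeq2, 1 of them in each direction having an unadjusted p under 0.05, while the 21 at or above it held all 10 calls, 7 higher (33.3%) and 3 lower (14.3%). Of all peaks under the median height, 14.3% were called higher and 6.47% lower, and of those at or above it 13.2% and 17.7%.

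Emb encodes embigin, a membrane glycoprotein of the immunoglobulin superfamily that accompanies monocarboxylate transporters to the cell surface. Its 14 peaks lay on chromosome 13 between -24.6 and 91.3 kb from the start site (negative distances are upstream), and 6 were called higher and 1 lower. The peak over the start site (mm9 chr13:118009129-118010229), annotated as exon 1 of 9, held 3366, 3020 and 2989 normalized reads in Rroid-deficient libraries 4, 5 and 6, against 1808, 1964 and 1939.8 in wildtype libraries 1, 2 and 3. Every Rroid-deficient library lay above every wildtype library. The means were 3125 ± 209 in Rroid-deficient and 1904 ± 83.8 in wildtype cells (SD, n = 3 each), which limma placed 0.71 apart on the log2 scale (SE 0.09, adjusted p = 1.16e-05).

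The 250 bases before the Emb start site are shown because the start-site peak, whose upstream edge lies at -252 bp in mm9, reaches about as far as this window. The Tmem176a window is shown beside it as that of a member whose start-site peak was not called. Both are from RefSeq on GRCm38.p6 (Emb, chr13:117220323-117220572, plus strand; Tmem176a, chr6:48841233-48841482, plus strand), in lower case 5′ to 3′, with matches to the searched motifs in capitals. The RefSeq promoter table held 5 of the 8 genes.
Emb: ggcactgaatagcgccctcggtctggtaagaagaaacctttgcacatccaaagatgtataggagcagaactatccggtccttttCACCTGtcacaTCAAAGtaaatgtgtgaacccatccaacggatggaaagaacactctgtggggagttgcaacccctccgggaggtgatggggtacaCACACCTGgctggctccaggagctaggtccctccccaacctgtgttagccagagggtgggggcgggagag
Tmem176a: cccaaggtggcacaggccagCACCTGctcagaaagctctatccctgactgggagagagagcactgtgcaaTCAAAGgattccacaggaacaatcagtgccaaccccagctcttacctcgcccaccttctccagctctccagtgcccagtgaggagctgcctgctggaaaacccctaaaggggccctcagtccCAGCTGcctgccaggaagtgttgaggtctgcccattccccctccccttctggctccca
The motifs searched on both strands were the E-box forms CAGGTG and CAGCTG, read by E proteins such as those that Id2 holds back, the RUNX motif TGTGGT, the T-box motif GGTGTG and the TCF/LEF motif CTTTGA. In the Emb window the reverse complement of CAGGTG stood at -166 and -68 bp from the start site, that of CTTTGA at -155 bp and that of GGTGTG at -70 bp, where it overlapped the second E-box. In the Tmem176a window the reverse complement of CAGGTG stood at -230 bp, CAGCTG at -58 bp and the reverse complement of CTTTGA at -180 bp. Such matches are frequent: of 32851 RefSeq promoter windows, 17.2% held CAGGTG, 13.0% CAGCTG, 14.0% TGTGGT, 16.3% GGTGTG and 13.8% CTTTGA on either strand. The GC content was 54.8% in the Emb window and 59.6% in the Tmem176a window, and the windows held 6 CpG and 1 CpG, against medians of 52.4% and 6 CpG over all promoters. A match describes letters and shows no binding.

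The highest of all 43 peaks lay at -3.48 kb from the Emb start site (chr13:118004688-118007117, intergenic). It held 4980 (Rroid-deficient library 4), 5110.0 (5) and 4769.5 (6), against 2829.8 (wildtype library 1), 2594 (2) and 2613 (3). The genotypes were far apart, with means of 4953 ± 172 in Rroid-deficient and 2679 ± 131 in wildtype cells (SD, n = 3 each) and a log2 difference in limma of 0.89 (SE 0.08, adjusted p = 4.04e-07). In intron 1 of 8, at 2.78 kb (chr13:118011804-118012524), the values were 805, 779 and 725 in Rroid-deficient libraries 4, 5 and 6, against 341, 314 and 315 in wildtype libraries 1, 2 and 3. This was the largest fold change of the 43 peaks, 2.38-fold, which is 1.25 on the log2 scale (SE 0.12, adjusted p = 8.14e-07, limma), and the genotypes did not overlap.

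Farther upstream, the intergenic Emb peak at -17.2 kb (chr13:117991523-117992786) held 471, 371 and 416 in Rroid-deficient libraries 4, 5 and 6, against 256, 243 and 251 in wildtype libraries 1, 2 and 3. Again no values overlapped, and the log2 fold change was 0.74 (SE 0.14, adjusted p = 0.000766, limma). Without Rroid-deficient libraries 4 and 6, the shallowest, which leaves 1 library of that genotype, this call was lost (0.57, adjusted p = 0.0909), whereas those at -3.48, 0.299 and 2.78 kb held. Higher values were also called at -8.95 kb (1991 ± 69.3 in Rroid-deficient and 1684 ± 72.5 in wildtype cells, log2 fold change 0.24, adjusted p = 0.0491, limma) and at 21.4 kb in intron 2 (418 ± 67.8 in Rroid-deficient and 314 ± 18.1 in wildtype cells, 0.40, adjusted p = 0.0464). Both stood at the limit. The first lost its call when any 1 of the 6 libraries was left out (adjusted p 0.0514 to 0.194), and the second when any library but Rroid-deficient library 5 was (0.0239 to 0.231).

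The direction turned at -24.6 kb (chr13:117984271-117985266), where the value was 423 ± 15.7 in Rroid-deficient and 617 ± 64.2 in wildtype cells (SD, n = 3 each). It fell by 0.54 on the log2 scale (SE 0.12, adjusted p = 0.00342, limma), and its genotypes did not overlap. The next peak on the side of the gene, at -21.9 kb, held 251 ± 25.7 in Rroid-deficient and 251 ± 37.4 in wildtype cells, a log2 fold change of 0.00 (95% interval -0.33 to 0.33). The 6 other Emb peaks without a call lay between 15.1 and 91.3 kb, and their log2 fold changes ranged from -0.38 at 69.3 kb (adjusted p = 0.0868, limma) to 0.32 at 15.1 kb. Emb peaks therefore differed in both directions within 1 locus, with the higher calls between -17.2 and 21.4 kb of the start site.

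**Figure D2:**
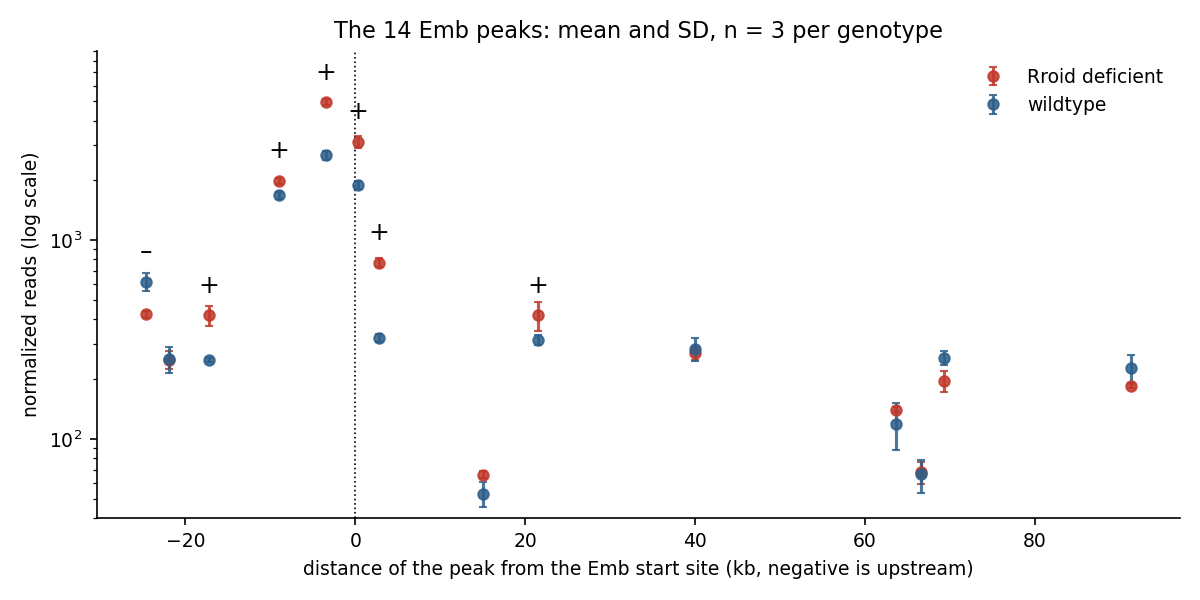
Normalized reads (y axis, log scale) at the 14 Emb peaks by distance from the start site (x axis, kb, negative upstream), mean and SD of 3 Rroid-deficient (red) and 3 wildtype (blue) libraries; a plus marks peaks called higher and a minus the peak called lower. The highest peaks are those at -3.48 and 0.299 kb, and the ratio between genotypes is widest at 2.78 kb.

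Cd69, an early activation antigen of lymphocytes, had 1 of 3 peaks called higher. That peak (chr6:129223426-129226294, intron 1 of 4, with the start site inside it) was centred 0.527 kb downstream of the start site. It held 3037, 3459 and 3148 normalized reads in Rroid-deficient libraries 4, 5 and 6, against 1955, 1887 and 1564 in wildtype libraries 1, 2 and 3. The lowest Rroid-deficient library was above the highest wildtype library, and the means were 3215 ± 219 in Rroid-deficient and 1802 ± 209 in wildtype cells (SD, n = 3 each), 1.78-fold apart. The log2 fold change was 0.84 (SE 0.10, adjusted p = 7.64e-06, limma). The upstream Cd69 peak at -8.41 kb, also tall, overlapped between genotypes with 2140.4 to 2878 in Rroid-deficient and 1963 to 2239.8 in wildtype libraries (0.21, 95% interval -0.02 to 0.43, adjusted p = 0.162, limma). A low peak at 15.1 kb had 67.3 ± 6.16 in Rroid-deficient and 76.5 ± 6.44 in wildtype cells (log2 fold change -0.18, adjusted p = 0.603, limma).

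Inpp4b encodes a lipid phosphatase that acts on phosphoinositides, and its 15 peaks on chromosome 8 lay from -236 to 97.4 kb, none over the start site. Of these 15, 2 were called lower, a share near the 12.1% of all peaks. None was called higher by limma, edgeR or DESeq2, and 1 had an unadjusted p under 0.05 in that direction. An unadjusted p under 0.05 in the lower direction was found at 3, which include the 2 called. The log2 fold change was below 0 at 12 of the 15, with a median of -0.19. Over all 51775 peaks it was below 0 at 26314, with a median of -0.01. The peak nearest to the start site (-12.0 kb, chr8:84225763-84228382, intergenic) held 529, 639.7 and 643 in Rroid-deficient libraries 4, 5 and 6, against 791, 763 and 787 in wildtype libraries 1, 2 and 3. All Rroid-deficient libraries lay below all wildtype libraries, and the log2 fold change was -0.37 (SE 0.11, adjusted p = 0.0221, limma).

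The other lower Inpp4b peak lay in intron 5 of 22 at 91.8 kb (chr8:84330532-84331212), with 259, 269 and 241 in Rroid-deficient libraries 4, 5 and 6, against 397, 313 and 320.4 in wildtype libraries 1, 2 and 3. Its groups did not overlap either, and the log2 fold change was -0.42 (SE 0.14, adjusted p = 0.0430, limma). These calls depended on single libraries. The call at -12.0 kb was lost without Rroid-deficient library 4, wildtype library 2 or wildtype library 3 (adjusted p 0.0192 to 0.115 over the 6 omissions), and the call at 91.8 kb without any library but Rroid-deficient library 5 (0.0470 to 0.152). The largest differences among the other Inpp4b peaks were in opposite directions and at low signal. The peak at 20.7 kb had 70.1 ± 23.9 in Rroid-deficient and 40.7 ± 10.9 in wildtype cells (0.74, adjusted p = 0.102, limma), and that at -199.7 kb had 28.0 ± 14.2 in Rroid-deficient and 42.1 ± 3.88 in wildtype cells (-0.68, adjusted p = 0.200, limma). Next came the peak at 58.6 kb, with 89.6 ± 30.9 in Rroid-deficient and 130 ± 20.1 in wildtype cells (-0.59, unadjusted p = 0.0342, adjusted p = 0.101, limma).

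**Figure D3:**
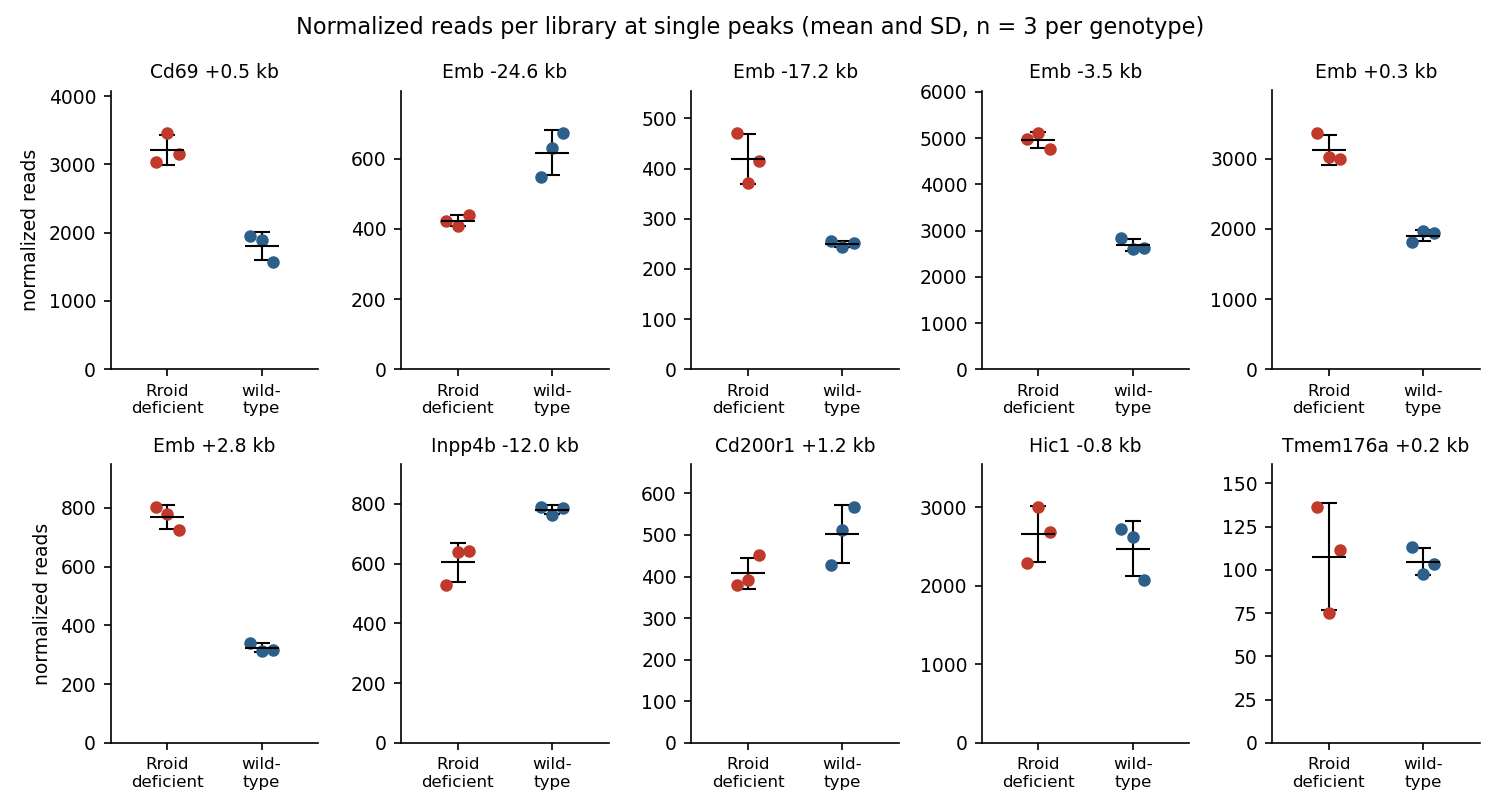
Normalized reads in each library (y axis, from 0) at 10 peaks named by gene and distance from the start site, with Rroid-deficient libraries in red at left, wildtype libraries in blue at right, and bars for the mean and SD (n = 3 per genotype). The genotypes separate at the Cd69, Emb and Inpp4b peaks and overlap at the Cd200r1, Hic1 and Tmem176a peaks.

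Cd200r1, an inhibitory receptor for the membrane protein CD200, had 3 peaks on chromosome 16, and none was called by limma, edgeR or DESeq2. The peak that covers its start site (1.23 kb, chr16:44765577-44768584, intron 1 of 6) held 381, 391 and 451 in Rroid-deficient libraries 4, 5 and 6, against 428, 512 and 568 in wildtype libraries 1, 2 and 3. The highest Rroid-deficient library exceeded the lowest wildtype library, and the log2 fold change was -0.30 (95% interval -0.58 to -0.01, unadjusted p = 0.0424, adjusted p = 0.118, limma). Leaving out wildtype library 1, the lowest of its group, gave a call (-0.41, adjusted p = 0.0400), and over the 6 omissions the adjusted p reached 0.359. The low peaks at -3.68 kb and 13.0 kb had log2 fold changes of -0.06 and -0.09 (adjusted p = 0.893 and 0.778, limma).

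Hic1, a zinc finger transcriptional repressor needed for resident lymphocytes of the mouse gut, had 5 peaks on chromosome 11. None was called by limma, edgeR or DESeq2, and none had an unadjusted p under 0.05. Its promoter peak (-0.751 kb, chr11:74980395-74984416) was among the taller members, with 2293, 3009 and 2686 in Rroid-deficient libraries 4, 5 and 6, against 2721, 2625 and 2071 in wildtype libraries 1, 2 and 3. The values interleaved, and the log2 fold change was 0.11 (95% interval -0.13 to 0.35). A peak in exon 2 at 2.61 kb had 403 ± 63.6 in Rroid-deficient and 396 ± 47.3 in wildtype cells (0.02). The 3 remaining Hic1 peaks, at 14.2, 20.4 and 30.9 kb, lie in introns 15 and 13 of the neighbouring gene Smg6, and their log2 fold changes were -0.14, -0.38 and 0.09.

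Tmem176a and Tmem176b encode related membrane proteins of intracellular vesicles, and they had 3 peaks in all on chromosome 6, none called by limma, edgeR or DESeq2 and none with an unadjusted p under 0.05. The peak over the Tmem176a start site (0.2 kb, chr6:48790808-48792903) is annotated as the promoter of a Tmem176b transcript, so the pair cannot be separated there. It held 137, 75.2 and 111 in Rroid-deficient libraries 4, 5 and 6, against 113, 97.5 and 104 in wildtype libraries 1, 2 and 3. Rroid-deficient libraries were both the highest and the lowest, and the log2 fold change was 0.00 (95% interval -0.48 to 0.49). The peak assigned to Tmem176b, 22.9 kb away from its start site (chr6:48767722-48768421), held 94.2, 128 and 104 in Rroid-deficient libraries 4, 5 and 6, against 88.2, 113 and 115 in wildtype libraries 1, 2 and 3. Its groups overlapped as well (0.04, 95% interval -0.40 to 0.49). At these values, a change within such wide intervals was not detectable.

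Zfp683 was not the nearest gene of any of the 51775 peaks under the 3 names searched. RefSeq on GRCm38.p6 lists it as a pseudogene with 0 transcripts, while every peak of the table is annotated to a gene with a RefSeq transcript. In RefSeq its neighbours on chromosome 4 are Lin28a and Crybg2, which the table names Aim1l. Between the start sites of these neighbours, 49.6 kb apart in mm9, lay 6 peaks, a set chosen after values were seen. Of all peaks, 12.1% were called lower, and of those at or above the median height 17.7%. Among the 6, 2 were called lower, both above the median height. They were at -23.6 kb from Lin28a (chr4:133597265-133599463, 658 ± 143 in Rroid-deficient and 1049 ± 142 in wildtype cells, -0.68, adjusted p = 0.00191, limma) and at -20.7 kb from Aim1l (chr4:133603239-133604173, 607 ± 97.2 in Rroid-deficient and 826 ± 106 in wildtype cells, -0.45, adjusted p = 0.0192, limma). The genotypes overlapped at neither, and the position of Zfp683 relative to them in mm9 was not determined. Another of the 6, at -9.25 kb from Aim1l, went the other way without a call. It had 139 ± 24.3 in Rroid-deficient and 98.1 ± 10.4 in wildtype cells, and its genotypes did not overlap. Its log2 fold change was 0.49 (unadjusted p = 0.0282, adjusted p = 0.0882, limma).

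When the values were summed over all peaks of a gene, giving 1 value per gene and library, Cd69 and Emb were higher and no member was lower by limma, edgeR or DESeq2, 1 (Inpp4b) having an unadjusted p under 0.05. Of all 16526 gene names, 11.0% were called higher and 9.69% lower on these sums. The Emb sums were 13659, 13163 and 12996 in Rroid-deficient libraries 4, 5 and 6, against 9131, 8776 and 9177 in wildtype libraries 1, 2 and 3. No library overlapped the other genotype, and the sums were 1.47-fold apart (log2 fold change 0.56, SE 0.06, adjusted p = 3.59e-05, limma). The Cd69 sums were 5238, 6410.3 and 5560.2 in Rroid-deficient libraries 4, 5 and 6, against 4166, 4205 and 3609 in wildtype libraries 1, 2 and 3. They did not overlap either, with a ratio of 1.44 (log2 fold change 0.52, SE 0.09, adjusted p = 0.00106, limma).

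The sums of the other members showed smaller differences, none called. Inpp4b had a log2 fold change of -0.20 (95% interval -0.39 to -0.0037, unadjusted p = 0.0463, adjusted p = 0.136, limma) and Cd200r1 one of -0.24 (-0.51 to 0.03, adjusted p = 0.197). Hic1 stood at 0.02 (-0.22 to 0.27), Tmem176b at 0.04 (-0.43 to 0.52) and Tmem176a at 0.00 (-0.46 to 0.45). The intervals of Hic1, Tmem176a and Tmem176b contain 0 well inside their bounds, but those of Tmem176a and Tmem176b are wide.

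**Figure D4:**
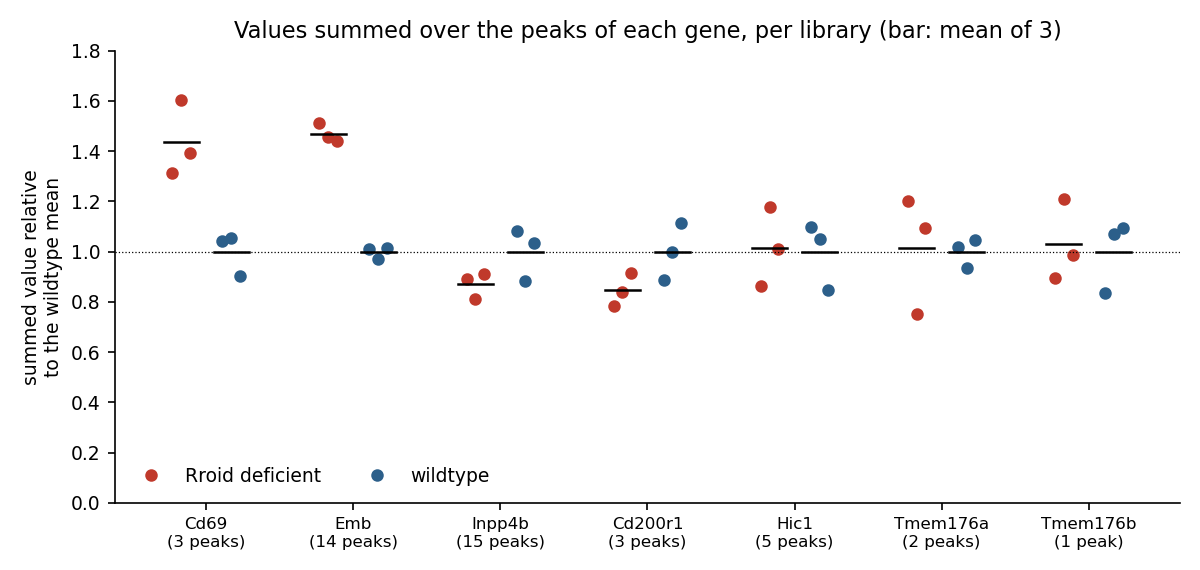
Values summed over the peaks of each gene in each library, divided by the wildtype mean (y axis), for the 7 genes with a peak; red points at left are Rroid-deficient libraries, blue points at right wildtype libraries, and bars the mean of 3. Only the Cd69 and Emb sums of Rroid-deficient libraries all lie above every wildtype library and were called, at 1.44 and 1.47 times the wildtype mean.

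Across the 6 libraries, the gene most like Emb in its summed values was Rnf145, with a distance of 0.09 log2 units between the centred values, against a median distance of 0.81 over the 8259 genes compared. Rnf145 had 4763 ± 145 in Rroid-deficient and 3238 ± 77.6 in wildtype cells (SD, n = 3 each). For Cd69 the nearest was Fam178b at 0.07 (median 0.79), and for Inpp4b it was Mir7094-1 at 0.11 (median 0.45). The measure compares only the pattern over these 6 libraries. Each gene was picked for the smallest of 8259 distances, so its place below the median was fixed in advance. The next genes were close behind, with Nanos1 at 0.11 for Emb, Ms4a7 at 0.07 for Cd69 and Scel at 0.13 for Inpp4b.

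Of 20 other genes of residency and of ILC1, 13 had a called peak and 7 had none, Ltb for lack of a peak. The share of all genes with a called peak was not computed. The list, which includes the integrins Itga1 and Itgae, the chemokine receptor Cxcr6 and the transcription factor Prdm1, had 131 peaks near 19 genes. Of these peaks 18 were called higher, 13.7% against 13.8% of all peaks, and 24 lower, 18.3% against 12.1%. The median log2 fold change was -0.09, against -0.01 over all peaks. By gene, 4 had calls only in the higher direction, 6 only in the lower, 3 in both and 7 in neither. P2rx7, a receptor for extracellular ATP, was higher at all 3 of its peaks, and the cytokine receptor Il21r at 6 of 11. Rgs1, which dampens chemokine receptor signalling, was lower at 7 of 17 and higher at 1. Prdm1, which encodes Blimp1, was lower at 4 of 19. Itga1, Itgae and Cxcr6 had no call by limma, edgeR or DESeq2 over their 9, 2 and 3 peaks, and 1 Itga1 peak and 1 Cxcr6 peak had an unadjusted p under 0.05, both in the higher direction.

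Single peaks show the size of these differences. The P2rx7 peak at 2.77 kb held 716, 809 and 659 in Rroid-deficient libraries 4, 5 and 6, against 399.8, 262 and 184 in wildtype libraries 1, 2 and 3. Its log2 fold change was 1.43 (SE 0.20, adjusted p = 4.91e-05, limma), without overlap. Called peaks also lay near Il21r (35.5 kb, 0.88), Nr4a1 (-4.07 kb, 0.84), Rgs1 (-58.6 kb, -0.74) and Rgs2 (86.2 kb, -0.81), with adjusted p from 1.71e-05 to 0.000437 in limma. Nr4a1 encodes a nuclear receptor induced on activation.

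The genes of exit from tissue and homing to lymph nodes also split. Over the 44 peaks of S1pr1, S1pr5, Klf2 and Ccr7, 10 were higher (22.7%, against 13.8% of all peaks) and 10 lower (22.7%, against 12.1%), and the median log2 fold change was 0.00. The 10 lower calls became 5 without Rroid-deficient libraries 4 and 6, which leaves 1 Rroid-deficient library that is assumed to vary like the wildtype libraries. S1pr5, through which NK cells leave lymph nodes and bone marrow, held 277, 344 and 258 at its peak at 1.88 kb in Rroid-deficient libraries 4, 5 and 6, against 653, 973 and 908 in wildtype libraries 1, 2 and 3. The genotypes were well apart (log2 fold change -1.52, SE 0.15, adjusted p = 2.00e-06, limma), and 3 of the 4 S1pr5 peaks were called lower.

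Ccr7, the receptor that guides lymphocytes to lymph nodes, was called higher at 9 of its 12 peaks. At -16.2 kb it held 318, 328 and 276 in Rroid-deficient libraries 4, 5 and 6, against 118, 78.1 and 65.4 in wildtype libraries 1, 2 and 3, which is 1.85 on the log2 scale (SE 0.21, adjusted p = 5.24e-06, limma). S1pr1, the partner of Cd69, was lower at 7 of 18 peaks and higher at 1. That 1 peak, at -14.4 kb, had the smallest p of the gene, with 1127 ± 73.9 in Rroid-deficient and 565 ± 38.8 in wildtype cells (0.99, adjusted p = 3.84e-06, limma). Klf2, which drives S1pr1 expression, had no call over 10 peaks by limma, edgeR or DESeq2, and 1 higher and 2 lower at an unadjusted p under 0.05.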

How the data were processed

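The build was mm9, with HOMER, DiffBind, MACS2 2.1.0, BWA, R 3.1.1, bcl2fastq 2.16.0 and Trimmomatic 0.32 listed as tools, per the submitters' processing notes. Tool settings, any adjustment of read ends to the cut and duplicate removal are not given in the sources used here. Deposited by the authors was 1 table of 51775 peaks with a normalized signal per library and HOMER's nearest gene. Within a tolerance of 0.01, 100% of values were whole reads times 1 factor per library. The median peak held 151 to 224 reads, a counting error of 6.68 to 8.14%. 0 value columns were left unused.

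The deposited unit being a normalized signal, limma 3.58.1 (R 4.3.3) with an intensity trend was fitted to log2(value + 1) over all peaks. Benjamini-Hochberg adjustment ran over all of them, with a limit of 0.05. This scale understates changes of low peaks. In the lowest decile of all peaks, Rroid-deficient libraries 4, 5 and 6 deviated from the peak mean by 0.29, -0.14 and 0.18 log2 units. Wildtype libraries 1, 2 and 3 deviated there by -0.0016, -0.15 and -0.015. Libraries 4 and 6 are the shallowest, and the part of depth in the values of low peaks was not tested. A filter (10 or more in at least 3 libraries) removed none. The test was checked on simulated data. Sums per nearest gene were tested the same way over 16526 names. Alternatives were edgeR 4.0.16 and DESeq2 1.42.0 on the recovered reads, other scalings, pseudocounts, filters and limits, and leaving out libraries.

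Named were all 8 genes, with values per library for the peak nearest to each start site and up to 3 further called peaks of smallest p, up to 8 called peaks of the other lists, 1 per gene, and for each member with a call the gene at the smallest Euclidean distance over the libraries. Values of other peaks were given where they were seen to differ or to bound a result. The members and lists were chosen with earlier results of these data known. Of the tissue exit list, 1 gene is not reported here. Promoter windows came from RefSeq on GRCm38.p6, and no coordinates were converted.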

Additional observations from a re-analysis of the deposited data

How the results depend on the processing

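No paired analysis was possible because the Rroid-deficient columns end in 4, 5 and 6 and share no replicate number with the wildtype columns. Over 21 single results and 16 settings, 287 of 336 values kept their direction and their side of the limit. The calls at Cd69 (0.527 kb) and Emb (-24.6, -3.48, 0.299 and 2.78 kb) held in every setting run, and 26 values lost a call, all at Emb or Inpp4b peaks named above, and 1 gained one. The 3 lower members became 5 with loess normalization and 1 at an adjusted p limit of 0.01, and ranged from 1 to 3 when 1 library was left out, with 1 without Rroid-deficient library 4, wildtype library 2 or wildtype library 3. The 7 higher members ranged from 5 to 8 over all settings. Of all peaks, 7126 higher became 4365 at a limit of 0.01, and 6257 lower became 3265. Leaving out the 2 shallowest libraries, an alternative chosen after seeing the data that leaves 1 Rroid-deficient library, assumed to vary like the wildtype ones, gave 3716 higher and 3654 lower, and 5 lower tissue exit peaks in place of 10. Leaving out 1 library gave 5211 to 7507 higher peaks, the fewest without Rroid-deficient library 6, and 4021 to 6305 lower peaks, the fewest without wildtype library 2. Fewer libraries also leave fewer degrees of freedom, and other causes were not tested.

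The 22 changes of sign were in results whose log2 fold change in the main fit lay between -0.0038 and 0.11. None of them had a call in the main fit or after the change, though some of the changed values lay farther from 0. Loess normalization gave -0.068 at the Tmem176a peak, -0.025 at the Tmem176b peak and -0.18 for the Tmem176b sum. Without the 2 shallowest libraries the Tmem176a peak stood at -0.47. The Tmem176a sum was 0.028 by DESeq2, 0.0042 with DESeq2 size factors, 0.030 by edgeR and 0.055 scaled to total reads. When 1 library was left out, the log2 fold change ranged from -0.19 to 0.24 (Tmem176a peak), -0.14 to 0.20 (Tmem176a sum), -0.080 to 0.14 (Tmem176b peak and sum), -0.014 to 0.21 (Hic1 peak at -0.751 kb) and -0.093 to 0.13 (Hic1 sum). No scaling moved the median of all peaks by over 0.1.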

Other observations

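Cd200r1 has paralogues of similar sequence, and how reads that match several of them were placed is not given in the sources used here. Cd200r2 and Cd200r4 had 3 and 4 peaks with no call by limma, edgeR or DESeq2, and 1 of each had an unadjusted p under 0.05, lower at Cd200r2 and higher at Cd200r4. Of the 3 peaks of Cd200r3, a receptor gene of the same family, 1 was called higher. It lay 63.5 kb from the start site and held 465, 396 and 371 in Rroid-deficient libraries 4, 5 and 6, against 199, 176 and 207 in wildtype libraries 1, 2 and 3 (log2 fold change 1.08, adjusted p = 4.07e-05, limma). The peak was chosen after its values were seen.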
